A study of Mus musculus with 18 samples.

Results

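The opioid system was examined through 7 genes, the 3 precursors Penk, Pdyn and Pnoc and the 4 receptors Oprm1, Oprd1, Oprk1 and Oprl1. They were chosen by symbol and matched to the gene table by GENCODE release M21, and all 7 of the 7 were found among its 53468 genes. Poly(A) RNA was sequenced from 3 dissected regions, the forebrain, midbrain and hindbrain, at postnatal day 25 in 3 Fmr1CRE and 3 wild-type (WT) male littermates on a C57BL/6 background, which gave 18 libraries and 3 libraries in each of the 6 groups. Fmr1CRE mice carry, by CRISPR/Cas9 knock-in, a base change in a cis-regulatory element assigned to Fmr1, the gene of the fragile X protein FMRP, and WT mice lack it. No mouse had received a treatment according to the labels, and the line of origin of the sequenced mice was not stated.

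Opioid peptides are cut from longer precursor proteins at pairs of basic residues. Proenkephalin (Penk) gives the enkephalins, which act mainly at delta and mu receptors, prodynorphin (Pdyn) gives the dynorphins, which prefer the kappa receptor, and prepronociceptin (Pnoc) gives nociceptin, the ligand of the Oprl1 receptor. All of these receptors couple to inhibitory G proteins, which lower cyclic AMP, open potassium channels and close calcium channels. In the striatum, Penk is a classical mark of the projection neurons that carry the dopamine receptor Drd2, and Pdyn of those that carry Drd1.

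The coding sequences of the precursors show what sets the peptides apart and are given here for that reason. A search of the annotated coding sequences found 7 pentapeptide cores in Penk-201, of which 6 encode Met-enkephalin and 1 Leu-enkephalin. Pdyn-201 held 3 cores, all for Leu-enkephalin, and Pnoc-201 held 1, whose opening codon is for phenylalanine in place of tyrosine. All 11 cores followed a pair of basic codons, and 5 of the 7 in Penk and 3 of the 3 in Pdyn also preceded one. Each sequence below is read 5′ to 3′ from the GENCODE M21 transcript, with the 5 codons of the core in capitals and the 6 neighbouring bases on each side in lower case.
Penk, core at codon 100, Met-enkephalin: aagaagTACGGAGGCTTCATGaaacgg
Penk, core at codon 231, Leu-enkephalin: aagaggTATGGGGGCTTCCTGaagcgc
Penk, core at codon 262, Met-enkephalin: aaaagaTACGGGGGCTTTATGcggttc
Pdyn, core at codon 166, Leu-enkephalin: aaacgcTATGGCGGCTTTTTGcgcaaa
Pdyn, core at codon 202, Leu-enkephalin: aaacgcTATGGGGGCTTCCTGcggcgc
Pdyn, core at codon 221, Leu-enkephalin: aagcgcTATGGTGGTTTCCTGcggcgt
Pnoc, core at codon 141, nociceptin: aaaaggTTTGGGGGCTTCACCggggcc

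On GRCm38, Penk (ENSMUSG00000045573) spans chr4:4133531-4138819 on the minus strand, Pdyn (ENSMUSG00000027400) spans chr2:129686565-129699844 on the minus strand and Pnoc (ENSMUSG00000045731) spans chr14:65400673-65425472 on the minus strand. Among the receptors, Oprm1 (ENSMUSG00000000766) spans chr10:6758506-7038198 on the plus strand, Oprd1 (ENSMUSG00000050511) chr4:132110726-132144486 on the minus strand, Oprk1 (ENSMUSG00000025905) chr1:5588466-5606131 on the plus strand and Oprl1 (ENSMUSG00000027584) chr2:181715016-181720985 on the plus strand. The counts cover whole genes, exons and untranslated regions included. Penk shares 233 exon bases with the antisense transcript A830012C17Rik, which held between 0 and 8 counts in any library, and 10.9% of its 31-base stretches occur there. Oprm1 shares 96 exon bases with Ipcef1 on the opposite strand, a gene with 489 to 2005 counts, and also overlaps Gm10945, which shared 0 exon bases and had 0 counts. Whether the counting used strand was not given in the sources used here, so reads from the shared bases of these pairs cannot be told apart. The other members shared at most 1.25% of their stretches with any other gene.

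The gene table held 22455512 to 28061185 counts per library, of which Oprm1 had as few as 9 and each of the other members at least 81 in every library. Levels are given as CPM, the counts scaled to a common library size, after TMM normalization over the 18 libraries. Of 8 forebrain and 8 hindbrain marker genes, 8 and 8 were called in the direction of their label between forebrain and hindbrain, and 6 of 8 midbrain markers were called higher in midbrain than in hindbrain and 7 of 8 higher than in forebrain. The midbrain dissections also held 189 to 318 summed CPM of forebrain markers, against 292 to 408 in forebrain. Hindbrain markers summed to 81.1 to 234 CPM in midbrain, against 330 to 756 in hindbrain and 1.23 to 12.9 in forebrain. Fmr1, the gene to which the edited element was assigned, lay at 74.0 to 78.7 CPM in Fmr1CRE and 69.1 to 83.4 in WT forebrain. The values were 65.8 to 69.7 and 61.6 to 74.0 in midbrain, and 63.4 to 66.1 and 51.1 to 69.7 in hindbrain. The level of Fmr1 thus does not check the genotype labels. The forebrain libraries of replicate 3 stood apart in both genotypes: their deviations from the group mean correlated over genes between -0.17 and -0.06 with those of the other regions of the same mouse, against -0.02 to 0.19 for the other 14 pairs of libraries from a mouse. Whether these forebrain libraries carry the labels of the mice they came from was not tested, and an exchange between the genotypes would alter every forebrain genotype value below. Results are also given without replicate 3 of both genotypes wherever that setting changed a call. The libraries were sequenced in pools whose members the study does not name, and a difference between pools was not tested.

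The 7 genes spanned a wide range of levels, as the plot of CPM by library shows. To compare genes, CPM was divided by the mean effective transcript length in kilobases. On this scale Penk was highest in every region, at 197 ± 52.1 CPM per kilobase in forebrain, 67.9 ± 25.3 in midbrain and 93.5 ± 7.79 in hindbrain (SD, n = 6 libraries of both genotypes), and its libraries did not overlap those of any other member. Oprl1 was the highest receptor, at 18.7 ± 3.68, 27.4 ± 3.90 and 21.7 ± 3.47 CPM per kilobase in forebrain, midbrain and hindbrain. In forebrain Pdyn, at 18.5 ± 6.29, overlapped Oprl1 over the libraries. Pdyn stood at 7.78 ± 4.32 in midbrain, where it overlapped Pnoc at 7.81 ± 0.374, and at 2.20 ± 0.706 in hindbrain, below every Pnoc library (mean 5.40 ± 1.01) and overlapping Oprk1 at 1.87 ± 0.518. Oprd1 was the lowest of the 7 in each region, at 2.81 ± 0.540, 1.91 ± 0.286 and 0.979 ± 0.315, and overlapped its neighbour Oprk1 each time. The place of Oprm1 depended on the counting and is described with that gene.

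**Figure D1:**
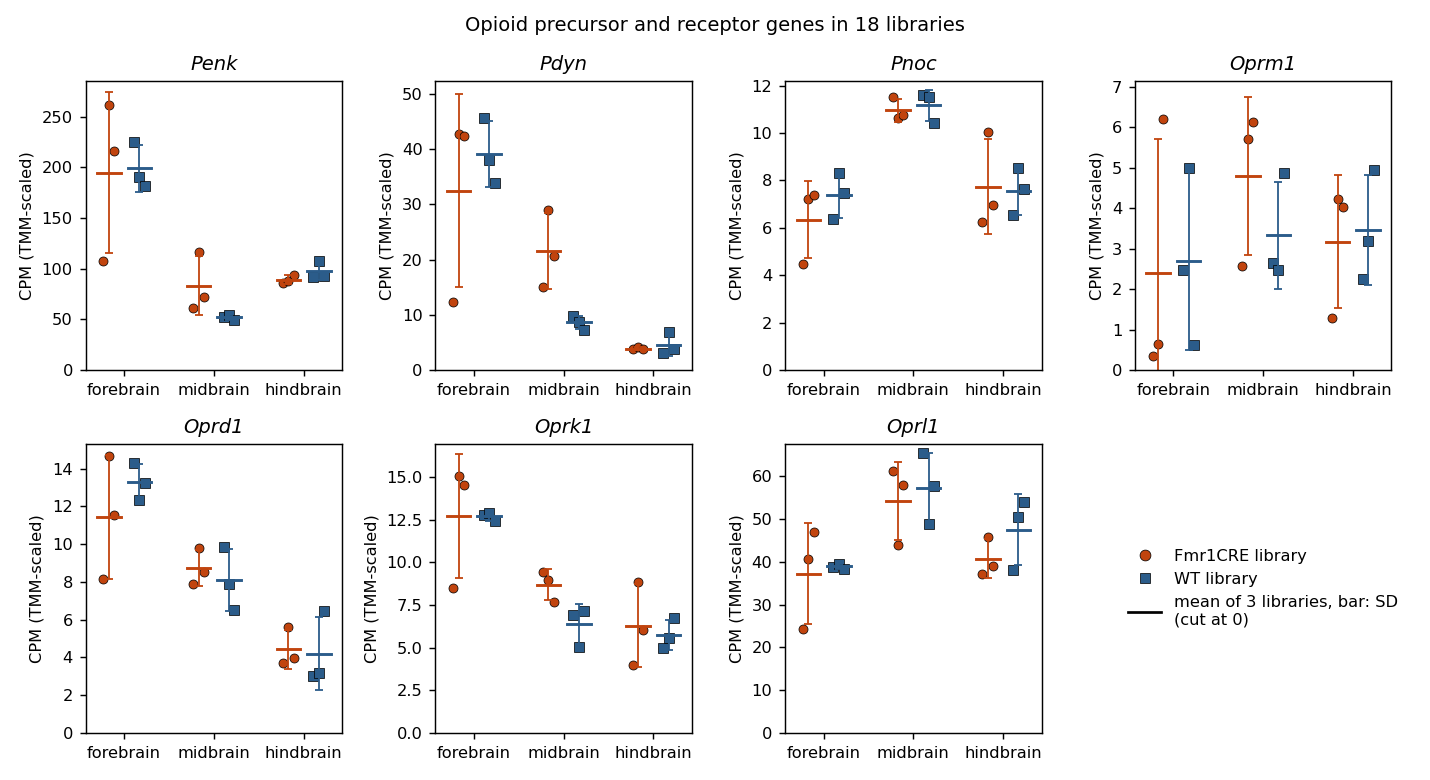
CPM (TMM-scaled, vertical axis from 0) of each of the 7 genes in the 18 libraries by region, with Fmr1CRE libraries as circles and WT libraries as squares. Horizontal lines mark the mean of 3 libraries and bars the SD. Penk and Pdyn are highest in forebrain apart from 1 low Fmr1CRE library, and Pnoc is highest in midbrain.

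Penk, the enkephalin precursor, was highest in forebrain. There the Fmr1CRE libraries of replicates 1, 2 and 3 held 107, 261 and 216 CPM and the WT libraries 225, 191 and 181 CPM. In midbrain they held 61.3, 117 and 72.5 CPM in Fmr1CRE and 52.3, 54.6 and 49.7 CPM in WT, and in hindbrain 85.6, 87.6 and 94.0 CPM in Fmr1CRE and 92.3, 108 and 93.2 CPM in WT. Fmr1CRE forebrain replicate 1, at 107 CPM, lay below the highest library of each other region, and the other 5 forebrain libraries lay above all of them. In edgeR's quasi-likelihood test over both genotypes, Penk was higher in forebrain than in midbrain by 1.58 on the log2 scale (SE 0.183, adjusted p = 2.57e-05) and than in hindbrain by 1.08 (SE 0.180, adjusted p = 0.000111). The call over midbrain was lost in Fmr1CRE libraries alone (adjusted p = 0.0685, edgeR). Penk was also lower in midbrain than in hindbrain, with a log2 difference of -0.50 (SE 0.179, adjusted p = 0.0303). This last call was lost without replicate 3 of both genotypes (-0.43, adjusted p = 0.224) and in Fmr1CRE libraries alone (-0.13, adjusted p = 0.791). It was also lost when Fmr1CRE replicate 3, WT replicate 1, WT replicate 2 or WT replicate 3 was left out singly, with an adjusted p between 0.0812 and 0.127 in edgeR.

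Pdyn, the dynorphin precursor, was called lower at each step from forebrain to midbrain to hindbrain. In forebrain the Fmr1CRE libraries of replicates 1, 2 and 3 held 12.4, 42.7 and 42.4 CPM and the WT libraries 45.6, 38.1 and 33.8 CPM. In midbrain the values were 15.1, 28.9 and 20.7 CPM in Fmr1CRE and 9.80, 8.73 and 7.36 CPM in WT. In hindbrain they ran from 3.75 to 4.22 CPM in Fmr1CRE and from 3.19 to 6.99 CPM in WT, below every forebrain and midbrain library. By edgeR, Pdyn was 8.34-fold higher in forebrain than in hindbrain (log2 3.06, SE 0.285, adjusted p = 2.21e-07) and 3.19-fold higher in midbrain than in hindbrain (log2 1.67, SE 0.278, adjusted p = 0.000135). Forebrain exceeded midbrain by 1.39 on the log2 scale (SE 0.265, adjusted p = 0.00174), by 1.25 without replicate 3 of both genotypes (adjusted p = 0.0488) and by 0.59 in Fmr1CRE libraries alone, where the adjusted p was 0.411. Fmr1CRE forebrain replicate 1 lay below the midbrain values of all 3 Fmr1CRE mice.

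Pnoc, the nociceptin precursor, was highest in midbrain. Its 6 midbrain libraries lay between 10.4 and 11.6 CPM, with a median of 11.1, above all 6 forebrain libraries (4.46 to 8.30 CPM, median 7.28) and all 6 hindbrain libraries (6.25 to 10.02 CPM, median 7.28). It differed by -0.69 on the log2 scale between forebrain and midbrain (SE 0.142, adjusted p = 0.00297, edgeR) and was higher in midbrain than in hindbrain by 0.53 (SE 0.141, adjusted p = 0.00552). Without replicate 3 of both genotypes the second difference was again 0.53 but its adjusted p was 0.0571. Both calls were lost in Fmr1CRE libraries alone (adjusted p = 0.0973 and 0.161, edgeR). Forebrain and hindbrain differed by less than their spread, with a log2 difference of -0.16 and a 95% confidence interval from -0.46 to 0.14. In tissue taken whole, fewer cells of a type and less RNA per cell cannot be told apart, for this and for every region difference here.

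Among the receptors, Oprd1, the delta receptor that binds enkephalins, followed the Pdyn order. It lay between 8.13 and 14.6 CPM in forebrain (median 12.8), between 6.54 and 9.84 in midbrain (median 8.21) and between 3.00 and 6.44 in hindbrain (median 3.84). The hindbrain libraries were all below those of both other regions, whereas forebrain and midbrain overlapped. By edgeR, Oprd1 was 2.86-fold higher in forebrain than in hindbrain (log2 1.52, SE 0.198, adjusted p = 9.40e-06) and 1.95-fold higher in midbrain than in hindbrain (log2 0.96, SE 0.198, adjusted p = 0.000824). The forebrain excess over midbrain, 0.55 on the log2 scale (SE 0.193), had an adjusted p of 0.0555 in edgeR. It was called under 4 of 16 alternatives, with an adjusted p of 0.0276 in DESeq2, 0.0375 with at least 10 counts in every library, 0.0389 on reads before length scaling and 0.0480 with the mouse as a replicate block, and over all alternatives the adjusted p of Oprd1 ran up to 0.346.

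Oprk1, the kappa receptor that binds dynorphins, lay between 8.52 and 15.1 CPM in forebrain (median 12.8), 5.06 and 9.44 in midbrain (median 7.41) and 3.98 and 8.83 in hindbrain (median 5.78). Only Fmr1CRE forebrain replicate 1, at 8.52 CPM, fell into the range of the other regions, since the other 5 forebrain libraries lay at 12.4 CPM or above. It was higher in forebrain than in hindbrain by 1.08 on the log2 scale (SE 0.182, adjusted p = 0.000115, edgeR) and than in midbrain by 0.77 (SE 0.180, adjusted p = 0.00711). The second call was lost without replicate 3 of both genotypes (0.73, adjusted p = 0.0788) and without WT replicate 2 (0.70, adjusted p = 0.0517). It was also lost in Fmr1CRE libraries alone (adjusted p = 0.299, edgeR). Midbrain and hindbrain differed by 0.31 with a 95% confidence interval from -0.08 to 0.70 (adjusted p = 0.171, edgeR). That difference was called under 1 of 16 alternatives.

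Oprl1, the nociceptin receptor, had its highest median in midbrain, as did the precursor of its ligand. It lay between 43.9 and 65.4 CPM in midbrain (median 57.7), 24.2 and 47.0 in forebrain (median 39.2) and 37.1 and 53.9 in hindbrain (median 42.4), and all 3 ranges overlapped. It differed by -0.55 on the log2 scale between forebrain and midbrain (SE 0.144, adjusted p = 0.0135, edgeR). That call was lost without Fmr1CRE replicate 1 (-0.39, adjusted p = 0.0527) and without WT replicate 1 (-0.50, adjusted p = 0.0679). It was also lost in Fmr1CRE libraries alone (adjusted p = 0.194, edgeR). The midbrain excess over hindbrain, 0.34 (SE 0.143), had an adjusted p of 0.0573 in edgeR. It was called under 3 of 16 alternatives, with an adjusted p of 0.0478 in DESeq2, 0.0377 without a filter on low counts and 0.0224 without Fmr1CRE replicate 2, and the adjusted p ran up to 0.292. Between forebrain and hindbrain Oprl1 differed by -0.21 (adjusted p = 0.243, edgeR), and it was called there only when libraries were scaled by total counts alone (-0.35, adjusted p = 0.0349). Reads on Oprl1 were spread over 10 of its 11 annotated transcripts, with 23.7% on the processed transcript Oprl1-206 and 19.0% on Oprl1-209, which is annotated as subject to nonsense-mediated decay, so that these gene counts are not counts of receptor-coding RNA alone.

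In all, 5 of the 7 genes were called between forebrain and midbrain, against a background of 19.3% of the 20363 genes tested, with 3 higher and 2 lower in forebrain, and 2 of them were more than 2-fold apart, where 4.09% of all genes were. Between forebrain and hindbrain 4 of the 7 were called, all higher in forebrain and all more than 2-fold, where 51.7% of all genes were called and 18.7% were called and more than 2-fold apart. Between midbrain and hindbrain 4 of the 7 were called, 3 higher and 1 lower in midbrain, where the background was 49.1%. At an unadjusted p under 0.05 stood 6, 4 and 5 of the 7 in these comparisons, beside 32.6%, 57.0% and 55.1% of all genes. The counts called against hindbrain, taken without direction or size, are thus near the share of all genes. By direction, 26.4% of all genes were called higher and 25.3% lower in forebrain than in hindbrain, beside 4 and 0 of the 7. Between midbrain and hindbrain these shares were 25.1% and 24.0%, beside 3 and 1 of the 7. Libraries did not overlap for 1 of the 7 genes between forebrain and midbrain, 2 between forebrain and hindbrain and 3 between midbrain and hindbrain, where 10.5%, 27.7% and 26.9% of all genes did not. Median log2 differences of the 7 were 0.55, 1.08 and 0.34, beside 0.02, -0.0085 and -0.03 over all genes. In Fmr1CRE libraries alone, 0 of the 7 were called between forebrain and midbrain and 2 between midbrain and hindbrain, and without replicate 3 of both genotypes 2 were called between midbrain and hindbrain.

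**Figure D2:**
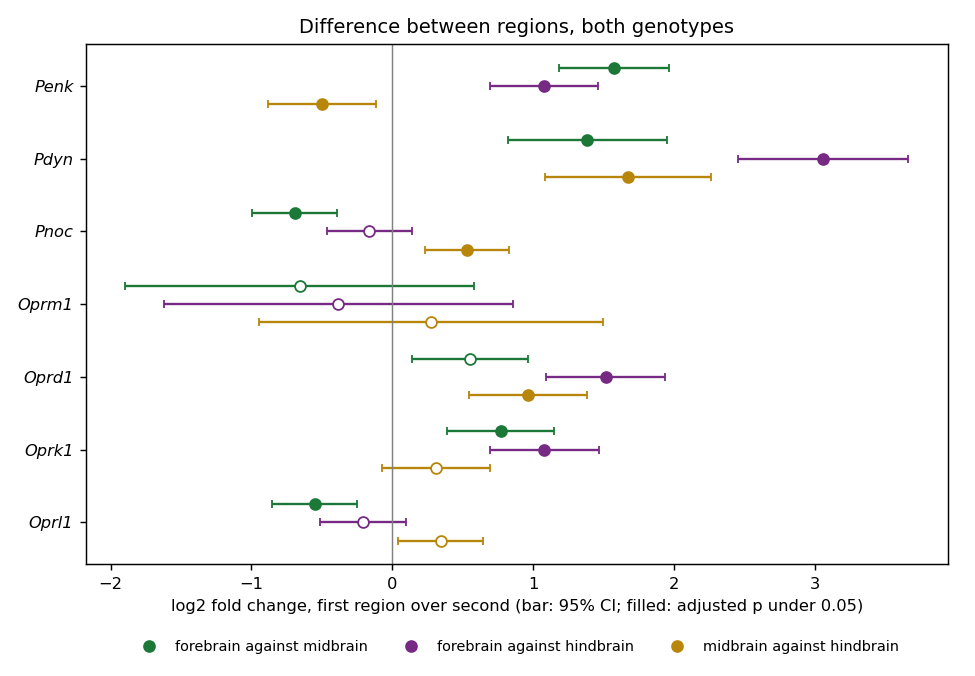
Log2 fold change of each gene between regions over both genotypes (horizontal axis, edgeR estimate with its 95% confidence interval). Filled points have an adjusted p under 0.05. Penk, Pdyn, Oprd1 and Oprk1 lie to the right in forebrain against hindbrain, whereas Pnoc and Oprl1 lie to the left in forebrain against midbrain and the intervals of Oprm1 cross 0 throughout.

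Oprm1, the mu receptor that binds morphine and the enkephalins, was thinly sampled, and its table counts depended on the length correction. The table held 9 to 153 counts per library, a 17-fold range, whereas the transcript estimates behind it held 19 to 68 reads, a 3.58-fold range. For the other 6 genes the ratio of table count to reads lay between 0.817 and 1.34. In Oprm1 it ran from 0.242 to 3.40. Of 31 annotated Oprm1 transcripts, 20 received reads, and the coding transcript Oprm1-215 took 68.5% of them.

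The difference lay mainly with Oprm1-227, a processed transcript of 242 bases, for which the quantification used an effective length of 17 bases. It received 41.4 of the 879 reads on Oprm1 over all libraries (4.71%), and at the gene's mean effective length of 506 bases each such read is worth 29.8 table counts. In the 15 libraries with any read on it, this transcript made up 41.4% to 93.4% of the gene's TPM, the length-corrected share of transcripts. The 3 libraries with 0 reads on it, Fmr1CRE forebrain replicates 1 and 2 and WT forebrain replicate 3, had the lowest table counts of the series, 9, 16 and 16, with 30.0, 33 and 66 reads on the gene. The 7 libraries with more than 3 reads on it held 117 to 153 table counts and 43 to 68 reads. The table count thus followed fewer than 5 reads per library on this transcript rather than the reads on the gene.

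**Figure D3:**
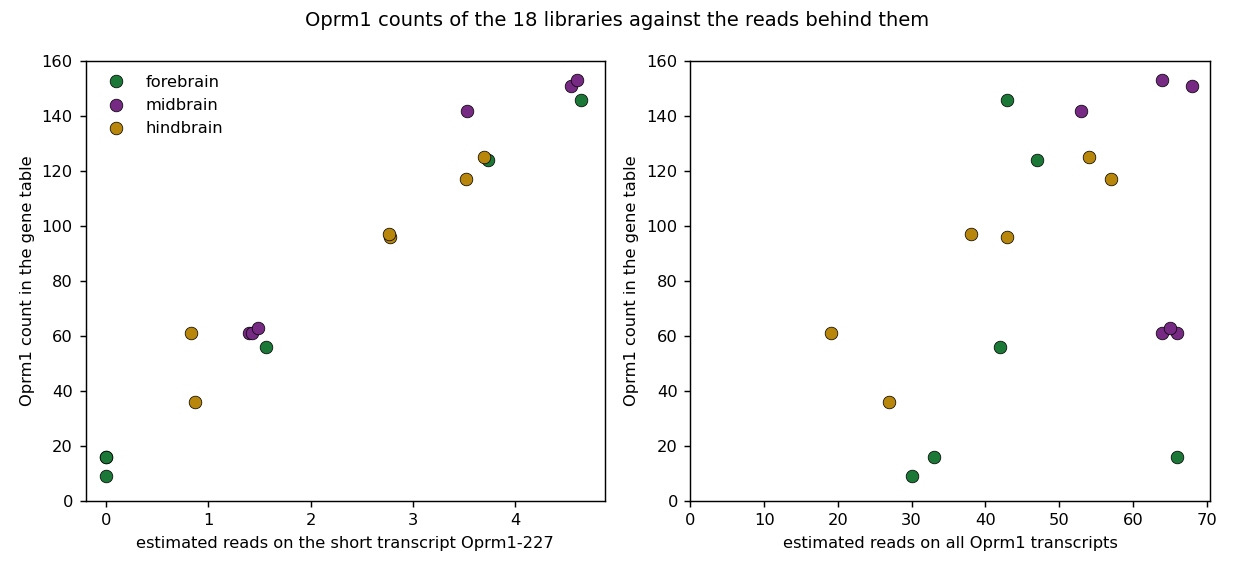
Oprm1 count in the gene table (vertical axis) of the 18 libraries against the estimated reads on the transcript Oprm1-227 (left) and on all Oprm1 transcripts (right), coloured by region. Table counts climb from 9 to 153 with the reads on Oprm1-227, while the libraries with 64 to 68 reads on the gene hold anything from 16 to 153 table counts.

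On the table counts, Oprm1 lay between 0.355 and 6.22 CPM in forebrain (median 1.56), 2.49 and 6.14 in midbrain (median 3.76) and 1.28 and 4.94 in hindbrain (median 3.62). It was called between no pair of regions in edgeR, with adjusted p from 0.473 to 0.723, though without Fmr1CRE replicate 3 it was called lower in forebrain than in hindbrain and in midbrain (log2 -1.40 and -1.67, adjusted p = 0.0485 and 0.0455). Reads before the length correction gave another picture, with a median of 42.5 reads in forebrain, 64.5 in midbrain and 40.5 in hindbrain. On those reads Oprm1 was higher in midbrain than in hindbrain by 0.74 on the log2 scale (adjusted p = 0.0123, edgeR), a comparison that was 0.28 with an adjusted p of 0.723 on the table counts, and forebrain against midbrain was -0.53 (adjusted p = 0.101). Forebrain against hindbrain changed sign, from -0.38 to 0.21, with an adjusted p of 0.612 and 0.465. By CPM per kilobase Oprm1 took place 4 of the 7 in forebrain and place 3 in midbrain and hindbrain, but by the library's share of reads over the length of Oprm1-215, on the same scale as CPM per kilobase, it was the lowest of the 7 in all regions, at 0.813, 1.20 and 0.747 per kilobase. A further table of the authors, of variance-stabilized log2 values, carried the same pattern, from 5.49 to 7.66 in forebrain and from 6.73 to 7.65 in midbrain.

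The comparison of Fmr1CRE with WT mice asked whether the edited element alters expression in the postnatal brain. In edgeR 0 of the 7 genes were called in any region. In forebrain 0 of the 7 also had an unadjusted p under 0.05. Over all 18467 genes edgeR called 0% there, with 5.43% at an unadjusted p under 0.05. DESeq2 called 0 of the 7 and 31 of all genes in forebrain. The genotypes overlapped for all 7 there, whereas 10.3% of all genes did not overlap. In hindbrain edgeR again called 0 of the 7, and 0 had an unadjusted p under 0.05. Over all 19112 genes edgeR called 0% there, with 5.13% at an unadjusted p under 0.05. DESeq2 called 0 of the 7 and 59 of all genes in hindbrain. All 7 overlapped, where 10.9% of genes did not. In forebrain the log2 differences lay between -0.25 for Pdyn and 0.03 for Oprk1 and in hindbrain between -0.26 for Pdyn and 0.12 for Oprk1, and no member passed the test. The 95% confidence intervals were wide, from -0.65 to 0.64 for Penk and from -1.17 to 0.67 for Pdyn in forebrain, where Fmr1CRE replicate 1 was low. Without that library Penk and Pdyn differed by 0.28 and 0.13 between the forebrains. Without replicate 3 of both genotypes the forebrain difference of Pdyn was -0.56 and that of Oprm1 was -2.83 on the table counts (unadjusted p = 0.00207, adjusted p = 0.163, edgeR), with the other 5 members between -0.29 and -0.08 and 0 of the 7 called.

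In midbrain Penk, Pdyn and Oprk1 were higher in all 3 Fmr1CRE libraries than in all 3 WT libraries, and the other 4 genes overlapped. Non-overlap was seen for 11.3% of all 18400 genes tested there, and 3 of 7 also had an unadjusted p under 0.05, against 6.17%. None was called after adjustment, where 1 gene of all (0.00543%) was. Pdyn differed most, at 21.6 ± 6.96 against 8.63 ± 1.22 CPM (SD, n = 3 and 3), a log2 difference of 1.32 by edgeR (SE 0.234, unadjusted p = 0.000561, adjusted p = 0.469). Penk stood at 83.5 ± 29.3 against 52.2 ± 2.46 CPM, a log2 difference of 0.68 by edgeR (SE 0.217, unadjusted p = 0.0153, adjusted p = 0.770). For Oprk1 the values were 9.44, 8.95 and 7.66 CPM in Fmr1CRE and 6.92, 5.06 and 7.15 CPM in WT, with a log2 difference of 0.44 (SE 0.181, unadjusted p = 0.0414, adjusted p = 0.806, edgeR). A two-sided exact permutation test gave p = 0.1 for each of the 3, the smallest p that 3 against 3 libraries allow.

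Pdyn in midbrain was the only genotype difference of the 7 genes whose call depended on the setting. DESeq2 called it (log2 1.32, adjusted p = 0.000206), as 1 of 62 genes in midbrain, whereas edgeR's adjusted p ranged from 0.101 to 0.999 over its alternatives. On reads before the length correction the libraries held 335, 598 and 419 reads in Fmr1CRE and 263, 245 and 194 in WT, still without overlap, and the log2 difference was 0.92 (adjusted p = 0.754, edgeR). Leaving out Fmr1CRE replicate 2, the highest library for both precursors, brought Pdyn to 1.05 and Penk to 0.36 (adjusted p = 0.472 and 0.960).

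Markers of the striatum and hypothalamus were also higher in the Fmr1CRE midbrain libraries. The 8 striatal projection neuron genes, namely Drd1, Drd2, Adora2a, Ppp1r1b, Pde10a, Rgs9, Gpr6 and Tac1, summed to 189 to 394 CPM in the Fmr1CRE and 153 to 184 CPM in the WT midbrain libraries. All 8 had the higher mean in Fmr1CRE, 4 of them without overlap, 0 were at 0 in any library and 0 were called (smallest adjusted p = 0.535, edgeR). Adora2a, an adenosine receptor of the enkephalin neurons of the striatum, stood at 8.79, 24.8 and 7.58 CPM in Fmr1CRE and 2.44, 2.81 and 2.46 CPM in WT. Ranked by Penk, the 6 midbrain libraries stood in the same order as by the sum of these 8 genes, from WT replicate 3 (49.7 CPM of Penk, 153 CPM summed) to Fmr1CRE replicate 2 (117 and 394 CPM).

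The 10 hypothalamic genes summed to 70.7 to 151 CPM in the Fmr1CRE and 26.6 to 42.5 CPM in the WT midbrain libraries. All 10 had the higher mean in Fmr1CRE and 8 did not overlap, with Agrp at 0 in at least 1 library and 0 called (smallest adjusted p = 0.106, edgeR, for Avp). Fmr1CRE replicate 1 had the highest sum and was the lowest of the Fmr1CRE libraries in both precursors, whereas Oprk1 stood in the order of the sum among these libraries, at 9.44, 8.95 and 7.66 CPM beside 151, 107 and 70.7 CPM summed. The general forebrain markers showed no such excess, since their sums were 189, 271 and 239 CPM in Fmr1CRE and 318, 288 and 214 CPM in WT midbrain, with 3 of 8 genes at a higher Fmr1CRE mean. The 8 midbrain markers summed to 38.9 to 51.1 CPM in Fmr1CRE and 49.0 to 73.7 CPM in WT, and 4 of them were lower in Fmr1CRE without overlap. The 6 midbrain dopamine neuron markers summed to 163 to 225 CPM in Fmr1CRE and 165 to 231 CPM in WT. Of these, 3 had the higher mean in Fmr1CRE and 0 were without overlap. The part of these tissues in the midbrain values of Penk, Pdyn and Oprk1 was not tested.

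**Figure D4:**
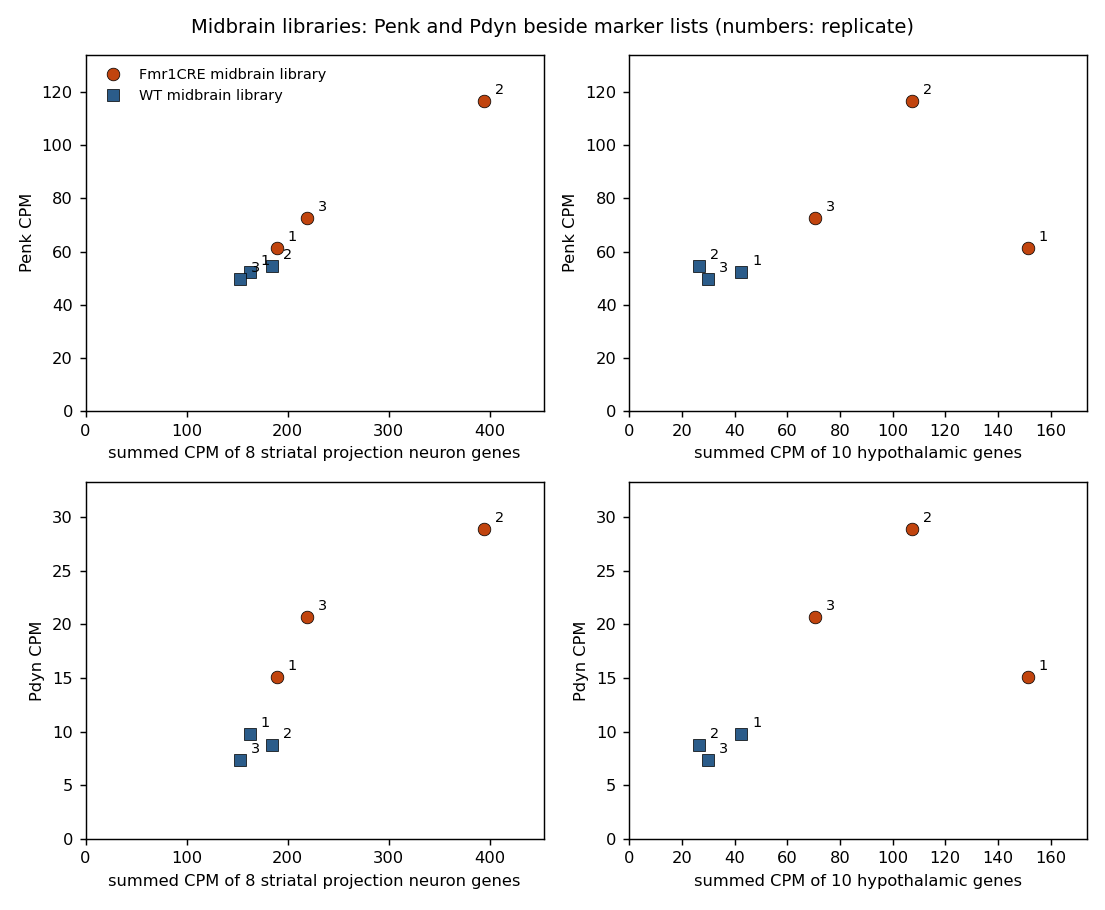
Penk (top) and Pdyn (bottom) CPM of the 6 midbrain libraries against the summed CPM of 8 striatal projection neuron genes (left) and 10 hypothalamic genes (right), with the replicate number beside each point. All 3 Fmr1CRE libraries (circles) lie above and to the right of the WT libraries (squares), and Fmr1CRE replicate 2 has the highest value of both precursors and of the striatal sum.

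In forebrain the same striatal genes ran with the precursors. Fmr1CRE replicate 1 was lowest in Penk and Pdyn and also in every other member. Its striatal sum was the lowest, 484 CPM against 719 to 1112 CPM in the other 5 libraries. So were its hypothalamic sum, 13.1 CPM against 29.3 to 119 CPM, and its interneuron sum, 653 CPM against 861 to 921 CPM. Its choroid plexus sum was the highest, 875 CPM against 373 to 770 CPM, as was its blood and pituitary sum, 1461 CPM against 479 to 1228 CPM. In the forebrain, thalamus, dentate granule neuron and medial habenula markers it lay within the range of the others. Fmr1CRE replicate 2, with the highest Penk value of 261 CPM, had the highest striatal sum. The part of the dissection in these differences was not tested.

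Whether the genotype effect differed between regions was tested by the interaction over all 18 libraries. In edgeR 0 of the 7 genes were called, against a background of 0%. DESeq2 called 0 of the 7 and 52 of all genes. Pdyn alone fell under an unadjusted p of 0.05, as 7.54% of all genes did, with an unadjusted p of 0.0125 and an adjusted p of 0.660 in edgeR. For Penk the adjusted p was 0.666.

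**Figure D5:**
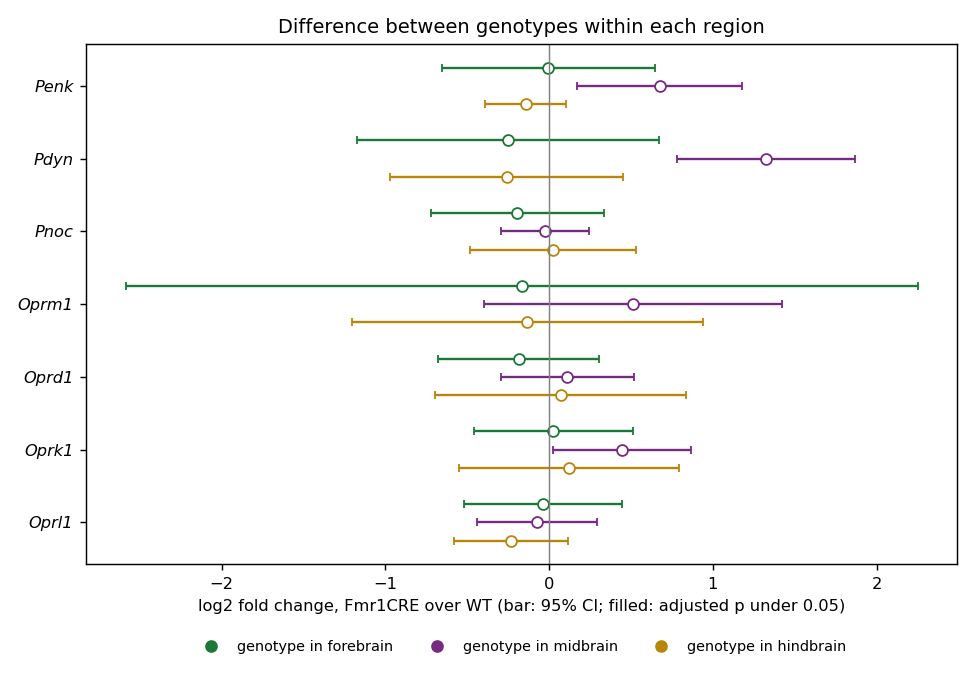
Log2 fold change of each gene, Fmr1CRE over WT, within each region (horizontal axis, edgeR estimate with its 95% confidence interval). All points are open, as 0 of the 7 genes had an adjusted p under 0.05, and the midbrain intervals of Penk, Pdyn and Oprk1 lie to the right of 0.

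The pathway around these genes was followed with 46 further genes in 6 lists, and all 46 were tested in every comparison. Between genotypes 0 of the 46 were called by edgeR in any region, while 2, 7 and 2 had an unadjusted p under 0.05 in forebrain, midbrain and hindbrain, where 5.43%, 6.17% and 5.13% of all genes did, and their median log2 differences were -0.08, -0.03 and 0.06 beside 0.00095, -0.0046 and -0.0091 over all genes. Between regions, 7 of the 46 were higher and 4 lower in forebrain than in midbrain (background 9.38% and 9.96%). Against hindbrain 27 were higher and 3 lower in forebrain (background 26.4% and 25.3%) and 29 were higher and 2 lower in midbrain (background 25.1% and 24.0%). The median log2 difference of the 46 was -0.02 between forebrain and midbrain, 0.58 between forebrain and hindbrain and 0.54 between midbrain and hindbrain.

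The signalling lists held most of the genes that were lower in hindbrain. Of 8 genes for G proteins that opioid receptors use, 6 were higher and 1 lower in forebrain than in hindbrain, and likewise 6 and 1 in midbrain, where the exception in both was Gnai3, an inhibitory alpha subunit (log2 -0.28 and -0.29, adjusted p = 0.00316 and 0.00283, edgeR). Of 9 effector channels and cyclases, 7 were higher in forebrain and 8 in midbrain than in hindbrain. Kcnj6 and Kcnj5, subunits of potassium channels opened by G proteins, exceeded hindbrain in midbrain by 2.17 and 1.68 on the log2 scale (adjusted p = 7.01e-08 and 1.61e-05, edgeR). Adcy5, the main striatal adenylyl cyclase, was higher in forebrain than in midbrain by 1.02 (adjusted p = 0.0155) and than in hindbrain by 2.60 (adjusted p = 1.46e-06), and exceeded hindbrain in midbrain by 1.58. Adcy8, a cyclase activated by calcium, was lower in forebrain than in midbrain (log2 -0.75, adjusted p = 0.000195, edgeR).

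Of 11 genes for receptor desensitization and for RGS proteins, which end G protein signals, 5 were higher and 1 lower in forebrain than in midbrain, and 9 were higher than hindbrain in forebrain and 9 in midbrain. Rgs9, which is also among the striatal markers, led with a log2 difference of 2.45 over midbrain and 3.68 over hindbrain (adjusted p = 2.49e-07 and 1.70e-10, edgeR). Rgs4 followed with 1.23 and 2.46, and Rgs20 with 0.70 and 2.32, while Rgs20 exceeded hindbrain in midbrain by 1.62. Rgs17 was lower in forebrain than in midbrain, by -0.39 (adjusted p = 0.0415).

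Other lists held the genes that make and break the peptides. Of 7 processing genes, 0 were called between forebrain and midbrain, while 3 were higher and 1 lower in forebrain than in hindbrain and 4 were higher and 1 lower in midbrain. The lower one was Ctsl, cathepsin L, each time (log2 -0.56 and -0.46, adjusted p = 3.80e-05 and 0.000318, edgeR). Of 8 breakdown genes, 1 was higher and 2 lower in forebrain than in midbrain, the latter being the converting enzyme Ece2 (-0.56, adjusted p = 0.000376) and the aminopeptidase Npepps (-0.30, adjusted p = 0.0363). Ece2 was also lower in forebrain than in hindbrain (-0.65, adjusted p = 1.34e-05). The remaining list of 3 genes held Pomc, the endorphin precursor, beside growth factor receptor genes. Of these 3, 1 was higher in forebrain than in hindbrain and 0 were called in the other region comparisons. Pomc itself lay at 1.74 to 2.74 CPM in forebrain and 1.47 to 2.56 CPM in hindbrain, with overlap.

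Genes whose pattern lay closest to each member were found by the root mean square difference of log2 CPM over the 18 libraries, each gene set to its own mean, among 16306 genes with a mean of at least 1 CPM. Closest to Penk were Scn4b, Rarb and Syndig1l, at 0.35, 0.37 and 0.37, where the variation of Penk itself was 0.73. Closest to Pdyn were Gpr83, Rasd2 and Tmem158, at 0.42 each against a variation of 1.35. For Pnoc they were Gm5124, Vangl2 and Gprasp1, at 0.14 to 0.16 against 0.37, and for Oprl1 they were Nxph1, Hs6st2 and again Gm5124, each at 0.16 against 0.33. For Oprd1 they were a gene without a symbol (ENSMUSG00000043498), Prkar2b and Lrrc8b, at 0.17 to 0.19 against 0.70, and for Oprk1 they were Tac1, the precursor of substance P, Mylk and Snx7, at 0.20 to 0.25 against 0.55. Oprm1 had no close partner, as Tll2, Glra3 and Zim1 lay at 0.78 to 0.79 where its own variation was 1.11.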

How the data were processed

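RNA was sequenced in single-end reads of 50 bases. Per the labels, the submitters' processing notes name Salmon 0.14.0, DESeq2 1.30.1 and the build mm10, which is GRCm38. The authors deposited a gene table of whole-number counts without normalization between libraries, and for each library expected counts and TPM (length-corrected shares of transcripts) for every transcript, as Salmon estimates them. They also deposited variance-stabilized log2 values, of which the copy used here held 1612 complete genes, Oprm1 alone among the 7. No strand setting or index was given in the sources used here. Over 12918 genes with at least 50 counts in every library, 99.7% of table counts came within 1% of length-scaled counts rebuilt from the 18 transcript sets, against 10.1% to 29.5% for reads simply summed, so the deposited gene counts are corrected for transcript length. Each set rebuilt a different labelled column, but only 2 of the 18 sample records attach that set to that library. Reads per library are therefore tied to groups by this rebuilding, not by the sample records. All measured columns were used, leaving 0 aside.

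Groups came from the labels. Counts were fitted in R 4.3.3 with edgeR 4.0.16 (TMM, default filter on low counts, quasi-likelihood test, Benjamini-Hochberg adjustment at 0.05 over all genes tested). Genotypes were compared on the 6 libraries of a region, and regions and the interaction in a model of 6 group means, where libraries from the same mouse were treated as independent. The p-values of the genotype tests within a region measure the spread between 3 mice per group. Those of the regions and the interaction count the libraries of a mouse as if from separate animals. For log2 CPM, 0.1 was added. The alternatives were DESeq2 1.42.0, edgeR with other scalings or filters on low counts, a fit of all 18 libraries, a replicate block, 1 genotype alone, each replicate left out, replicate 3 left out of both genotypes and, chosen after seeing the data, reads before length scaling. The scripts were tested on simulated data.

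Regions of a mouse share its number in the labels, so the block in region comparisons is the animal. Between genotypes the labels do not state that the number pairs mice. Deviations of same-numbered libraries correlated between -0.20 and 0.08 over genes. Libraries of the same mouse reached no more than 0.19, so these values cannot show that a pairing is absent.

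The members and lists were chosen with earlier results of these data known. Named were the 7 members, overlapping genes, Fmr1, pathway genes called between genotypes, up to 4 called pathway genes in each direction of each region comparison, and the 3 genes nearest in pattern to each member. Marker genes and Pomc were named beyond that rule, after their values were seen.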

Additional observations from a re-analysis of the deposited data

Results flagged for a closer look

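Within each region, the 6 libraries of each gene were examined for a lowest or highest library set apart from the rest, its gap to the next library being over 0.625 of the whole range of log2 CPM. This held in 4 of 21 sets. Chance gives about 1 in 20 for independent sets of normal values from 1 group. These sets share libraries and pool both genotypes, so that rate is only a rough guide. Fmr1CRE forebrain replicate 1 was the low library in 3 of them. It held 12.4 CPM of Pdyn, where the other 5 forebrain libraries held 33.8 to 45.6, 8.52 CPM of Oprk1 against 12.4 to 15.1, and 24.2 CPM of Oprl1 against 38.4 to 47.0. The same library was the lowest forebrain library in every member and in the summed striatal, hypothalamic and interneuron markers. It was the highest in the summed choroid plexus markers and in those of blood and pituitary. Without it, the genotype difference in forebrain was 0.13 for Pdyn, 0.23 for Oprk1 and 0.18 for Oprl1 on the log2 scale. With that mouse left out of the region comparisons, the forebrain excess over midbrain was 1.48 for Pdyn and 0.91 for Oprk1 and that over hindbrain 3.24 and 1.07, all called, while Oprl1 differed by -0.39 and -0.12 and was not called. The other was WT hindbrain replicate 2, which held 6.99 CPM of Pdyn, where the other 5 hindbrain libraries held 3.19 to 4.22.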

How the results depend on the processing

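The counts of the 7 genes called kept within 1.5 times of their value except as follows. In midbrain DESeq2 called 1 gene between genotypes. In Fmr1CRE libraries alone 0 were called between forebrain and midbrain and 2 between midbrain and hindbrain, and without replicate 3 of both genotypes 2 between midbrain and hindbrain. With the mouse as a replicate block, 6, 4 and 4 members were called in the region comparisons and 0 between genotypes, and the block changed no other call than that of Oprd1.

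Counts over all genes moved more. Between genotypes in forebrain, DESeq2 called 31 and a fit of all 18 libraries 1. In midbrain, DESeq2 called 62, no filter 11, at least 10 counts in every library 0, the fit of all 18 libraries 0, leaving out a replicate 0 to 4, leaving out replicate 3 of both genotypes 3 and reads before length scaling 2. In hindbrain, DESeq2 called 59, no filter 11, the fit of all 18 libraries 1, leaving out a replicate 0 to 5, without replicate 3 of both genotypes 1 and reads before scaling 1. For the interaction, DESeq2 called 52, no filter 7, leaving out a replicate 0 to 4 and leaving out replicate 3 of both genotypes 131. Forebrain against midbrain gave 1729 in WT and 527 in Fmr1CRE libraries alone and 2258 to 4001 with a replicate left out (2258 without WT replicate 1, 2337 without WT replicate 2 and 2592 without Fmr1CRE replicate 1). In Fmr1CRE libraries alone forebrain against hindbrain gave 6178 and midbrain against hindbrain 4847. The cause of these shifts was not tested, and the settings that leave libraries out also rest on fewer libraries.

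Signs changed in small genotype differences, none of them called. In forebrain, Penk was 0.011 with total counts, 0.0019 with at least 10 counts in every library and 0.016 on reads before scaling, and Oprk1 was -0.00019 in the fit of all 18 libraries, -0.0084 with the replicate block and -0.077 without replicate 3 of both genotypes. In midbrain, Pnoc was 0.0047 with total counts and Oprl1 0.11 on reads before scaling. In hindbrain, Oprm1 was 0.23 on reads before scaling. Between regions, Oprm1 was 0.21 for forebrain against hindbrain on reads before scaling and -0.059 for midbrain against hindbrain in WT libraries alone. With a replicate left out, forebrain values ran from -0.28 to 0.28 for Penk, -0.51 to 0.13 for Pdyn, -2.36 to 0.65 for Oprm1, -0.12 to 0.23 for Oprk1 and -0.22 to 0.18 for Oprl1. Midbrain values ran from -0.021 to 0.26 for Oprd1 and -0.18 to 0.056 for Oprl1. Hindbrain values ran from -0.46 to 0.16 for Pdyn, -0.20 to 0.15 for Pnoc, -0.39 to 0.25 for Oprm1, -0.12 to 0.50 for Oprd1 and -0.20 to 0.36 for Oprk1, and Oprm1 in forebrain against hindbrain from -1.40 to 0.026. Depth was lowest for Oprm1, with 19 to 68 reads per library.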
